A study of Mus musculus with 3 samples.

Results

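The genes described here are 35 genes that dividing cells use to copy and to separate their chromosomes, chosen as a list of well-known S-phase and mitosis genes. They are 35 of the 21646 protein-coding genes whose promoters were counted, and they fall into 17 replication genes (*Ccne1*, *Ccne2*, *Mcm2* to *Mcm7*, *Pcna*, *E2f1*, *E2f2*, *Cdc6*, *Cdt1*, *Rrm2*, *Tyms*, *Tk1* and *Gins2*) and 18 mitosis genes (*Mki67*, *Top2a*, *Ccnb1*, *Ccnb2*, *Ccna2*, *Cdk1*, *Aurka*, *Aurkb*, *Plk1*, *Bub1*, *Bub1b*, *Cenpe*, *Cenpf*, *Kif11*, *Kif20a*, *Birc5*, *Cdc20* and *Ube2c*). The data come from 1 preparation of wild-type hematopoietic stem cells (HSCs) from the bone marrow of 8-week-old female C57BL/6 mice, sorted as LSK CD150+ CD48- CD34- cells. The labels do not say how many mice gave the cells, no agent was given, and there is no second group. The preparation was profiled by DOGMA-seq, in which open chromatin (ATAC), RNA and antibody tags are read from the same cells. In ATAC-seq a transposase cuts accessible DNA, and each fragment is the piece between 2 cuts, so more fragments at a promoter mean that it was cut more often.

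In cycling cells, E2F transcription factors switch on the replication genes as cells pass from G1 into S phase, and the mitosis genes follow in G2 through a complex of MuvB proteins with B-Myb and FoxM1. In resting cells the same MuvB core joins p130 and E2F4 as the DREAM complex, which binds both kinds of promoter and keeps the genes silent. Adult HSCs are known for spending most of their time outside the cell cycle. The sort used here does not select cells by cell cycle phase and the RNA of single genes was not analysed here, so neither the share of resting cells nor the transcription of these genes is known from the values below.

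Chromatin was read in 3108 cells, which are the called cells with more than 3000 fragments in peaks, of 3757 called cells in all. A kept cell had a median of 11457 fragments (3977 to 194399) and 3860.5 RNA UMIs (234 to 52809), and every kept barcode carried both libraries. By the rule given below, which 62.9% of all protein-coding promoters met, 9 of 10 HSC marker promoters were open (the exception was *Ly6a*). The same held for 3 of 6 B cell, 1 of 6 T cell, 1 of 7 neutrophil and myeloid, 4 of 6 erythroid and 1 of 8 promoters of genes not expressed in blood. Median levels were 22.4 times the flank for the HSC, 11.9 for the erythroid and 4.71 for the B cell promoters. The lists overlapped, as the open HSC promoter of *Slamf1* had 6.55 times the flank and the B cell promoter of *Ebf1* 15.5 times. The erythroid promoters that were open included *Klf1* and *Epor*, and those of the globins *Hba-a1* and *Hbb-bt* held 4 and 39 fragments. Doublets were kept, and their part in the values below was not tested beyond leaving out the 155 cells with the most fragments.

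Promoters of the replication genes are shown first, as the DNA in which the cuts were counted and in which E2F factors would bind. RefSeq promoter sequences of GRCm38.p6 were at hand for 29 of the 35 genes, 14 replication and 15 mitosis genes; *Ccna2*, *Gins2*, *Mcm4*, *Ccne2*, *Aurkb* and *Kif20a* were not in the table. Printed are the 150 bases before the first annotated start for the 3 most and then the 3 least accessible replication promoters among those for which these bases are free of protein-coding exons. Each sequence runs 5′ to 3′ on the strand of the gene, and capitals mark, on either strand, the E2F strings TTTCCCGC, TTTCGCGC, TTTGCCGC and TTTGGCGC, the CHR strings TTTGAA and TTCGAA, the NF-Y string CCAAT and the GC box GGGCGG. *Ccne1* (chr7:38107535-38107684 on the minus strand), *Mcm5* (chr8:75109359-75109508 on the plus strand) and *Cdt1* (chr8:122567865-122568014 on the plus strand) are the accessible ones, and *E2f2* (chr4:136172124-136172273 on the plus strand), *Tk1* (chr11:117826093-117826242 on the minus strand) and *Tyms* (chr5:30073626-30073775 on the minus strand) the others.
Ccne1: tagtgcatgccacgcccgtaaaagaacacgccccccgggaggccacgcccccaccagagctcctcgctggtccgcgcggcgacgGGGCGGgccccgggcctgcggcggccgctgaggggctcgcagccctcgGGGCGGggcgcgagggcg
Mcm5: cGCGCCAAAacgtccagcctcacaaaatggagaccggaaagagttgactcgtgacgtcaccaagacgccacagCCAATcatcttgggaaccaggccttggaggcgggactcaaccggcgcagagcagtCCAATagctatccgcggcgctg
Cdt1: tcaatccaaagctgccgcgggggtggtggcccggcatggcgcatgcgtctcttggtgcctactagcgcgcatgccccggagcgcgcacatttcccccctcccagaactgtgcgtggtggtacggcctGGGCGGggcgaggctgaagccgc
E2f2: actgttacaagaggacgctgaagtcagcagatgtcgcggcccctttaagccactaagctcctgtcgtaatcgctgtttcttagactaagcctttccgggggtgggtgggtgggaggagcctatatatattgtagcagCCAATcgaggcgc
Tk1: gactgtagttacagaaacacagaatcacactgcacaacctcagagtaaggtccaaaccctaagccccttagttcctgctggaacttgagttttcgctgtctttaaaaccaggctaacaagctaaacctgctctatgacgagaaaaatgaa
Tyms: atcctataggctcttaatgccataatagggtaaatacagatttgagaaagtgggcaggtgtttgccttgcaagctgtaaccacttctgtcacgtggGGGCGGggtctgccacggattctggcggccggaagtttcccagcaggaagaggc

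The most accessible of these, *Ccne1*, was 79.3% G and C over the bases shown and held only GC boxes, whereas *Tk1* was 43.3% G and C and held none of the strings. The most frequent cut position of *Tk1* lay away from these bases, 1275 bp downstream of its start. *Mcm5* carried the E2F string TTTGGCGC read on the opposite strand, near the 5′ end of the stretch, and 2 CCAAT strings. The E2F strings of *Cdt1* and *E2f2* lie outside the bases shown. In the whole RefSeq window, which runs from 250 bases before to 50 bases after the start, an E2F string was found in 7 of 14 replication promoters (*Cdc6*, *Cdt1*, *E2f2*, *Mcm3*, *Mcm5*, *Mcm6* and *Mcm7*), or 50.0%, as against 2.98% of 16426 protein-coding promoters and 1 of 15 mitosis promoters (*Cdk1*). *Mcm6* held 3 such strings. A match is a string of letters and does not show that a factor was bound. Every E2F string contains CG, and the share over all promoters was not matched for CpG content.

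The mitosis promoters differed from these in their letters. The 3 most and the 3 least accessible that could be printed by the same rule were *Top2a* (chr11:99024190-99024339 on the minus strand), *Mki67* (chr7:135716380-135716529 on the minus strand) and *Ube2c* (chr2:164769748-164769897 on the plus strand), and then *Ccnb2* (chr9:70421555-70421704 on the minus strand), *Plk1* (chr7:122159285-122159434 on the plus strand) and *Bub1b* (chr2:118598061-118598210 on the plus strand), with the same strings in capitals.
Top2a: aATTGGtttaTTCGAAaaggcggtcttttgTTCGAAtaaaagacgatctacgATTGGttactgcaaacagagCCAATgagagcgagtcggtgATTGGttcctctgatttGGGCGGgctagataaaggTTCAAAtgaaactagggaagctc
Mki67: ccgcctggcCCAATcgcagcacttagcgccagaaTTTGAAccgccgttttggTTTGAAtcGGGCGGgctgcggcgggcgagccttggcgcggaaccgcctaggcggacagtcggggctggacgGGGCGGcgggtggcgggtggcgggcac
Ube2c: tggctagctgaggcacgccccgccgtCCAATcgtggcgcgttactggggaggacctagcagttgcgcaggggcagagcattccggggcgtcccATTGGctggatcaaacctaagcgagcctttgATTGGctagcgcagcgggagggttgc
Ccnb2: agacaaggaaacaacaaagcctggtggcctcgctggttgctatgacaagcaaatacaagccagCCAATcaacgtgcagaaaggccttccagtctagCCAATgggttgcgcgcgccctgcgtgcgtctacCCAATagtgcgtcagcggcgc
Plk1: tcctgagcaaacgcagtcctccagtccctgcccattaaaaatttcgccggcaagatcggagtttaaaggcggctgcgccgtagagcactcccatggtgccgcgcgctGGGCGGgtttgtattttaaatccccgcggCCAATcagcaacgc
Bub1b: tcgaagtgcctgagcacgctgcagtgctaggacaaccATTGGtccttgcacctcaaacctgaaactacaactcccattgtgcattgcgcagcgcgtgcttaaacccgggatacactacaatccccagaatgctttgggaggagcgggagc

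The *Top2a* stretch held 3 CHR and 4 CCAAT strings, and *Mki67* held 2 CHR strings, 1 CCAAT and 2 GC boxes. The least accessible stretch, *Bub1b*, still held a CCAAT string. Over the 300-base windows a CHR string was present in 12 of 15 mitosis promoters (80%) and in 2 of 14 replication promoters (14.3%), as against 17% of all protein-coding promoters. CCAAT was present in 14 of 15 mitosis promoters, with *Birc5* the exception, in 8 of 14 replication promoters and in 38.7% of all. All 12 mitosis promoters with a CHR string also had a CCAAT string, a pair that 7.10% of all promoters held. GC boxes were found in 11 of 14 replication and 13 of 15 mitosis promoters and in 48.7% of all. CHR strings of 6 letters and CCAAT of 5 turn up often by their length alone. The GC box and the E2F strings contain CG, and 30 of the 35 members have promoters rich in CpG, a class defined below. The shares over all promoters were not split by that class, and none of these counts was tested.

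The question asked of the chromatin was whether promoters of proliferation genes were accessible in these cells. All 35 were open. A promoter was the window of 1000 bp to each side of the transcription start, each fragment with an end inside was counted once, and open meant at least 5 times the median density of the flanks of protein-coding genes, 3000 to 10000 bp from the start, which was 10.1 fragments per kb. By this rule 62.9% of all protein-coding promoters were open, and 96.2% of those rich in CpG (observed over expected CpG of at least 0.6 within 500 bp of the start). Since 30 of the 35 promoters were of that class, being open was the rule for promoters of their kind. The 5 members in the CpG-poor class (*Mcm7*, *Cdk1*, *Mcm2*, *Tk1* and *Tyms*) were open too, in a class where 32.3% of promoters were. At 20 times the flank, a bar set after the data were seen, 31 of 35 members and 46.8% of all promoters passed, and those below it were *Plk1*, *Tk1*, *Bub1b* and *Tyms*.

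The median member had 1347 fragments, 66.8 times the flank and the 79.2 percentile of protein-coding promoters (77.9 to 80.6 from the counting error of the gene at the median). Ranked within the CpG class of each promoter, the members had a median percentile of 65.4. The counts ran from 142 at *Tyms* to 5340 at *Gins2*, a wide range in which 7 members lay above the 90th percentile of all promoters and 3 (*Tk1*, *Bub1b* and *Tyms*) below the 50th. Of CpG-rich promoters 20.1% lay above that 90th percentile, a share near that of the members. The intervals given with counts and shares are exact 95% Poisson or binomial intervals and cover counting error only, as there is 1 preparation and no replicate.

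**Figure D1:**
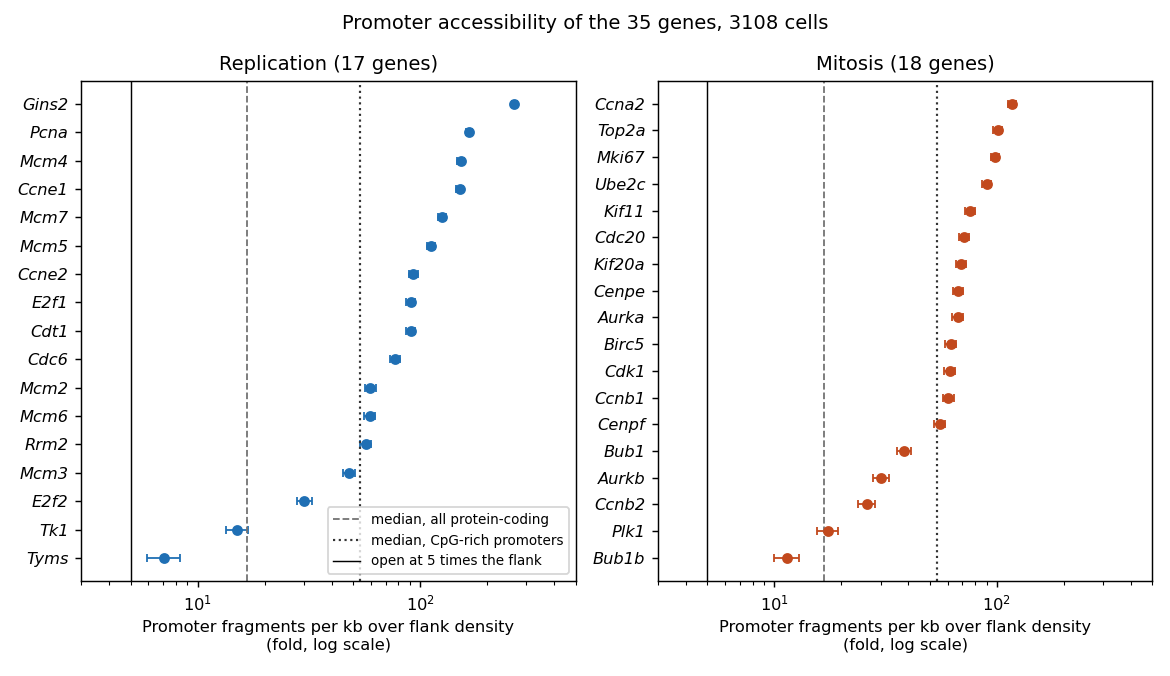
Promoter accessibility of the 17 replication genes (left) and the 18 mitosis genes (right). Points give fragments per kb in the promoter window over the flank density (fold, log axis), bars are exact 95% Poisson intervals, and vertical lines mark the open threshold and the medians of all protein-coding and of CpG-rich promoters. The replication genes spread from 7.05 to 265 times the flank and the mitosis genes from 11.4 to 117 times.

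Among the genes that build the replication machinery, the most accessible promoter was that of *Gins2*, which encodes a subunit of the GINS complex that activates the replicative helicase. It held 5340 fragments (5198 to 5485), 265 times the flank, and 78.4% of cells (77.0 to 79.9) had at least 1 fragment there. For comparison, the genes not expressed in blood had a fragment in a median of 0.756% of the same cells, and the highest of them, *Neurod1*, in 3.41%. *Pcna*, the sliding clamp that holds DNA polymerases on the template, came next at 166 times the flank with 60.2% of cells. These promoters were therefore cut in most of the cells.

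The 6 subunits of the MCM2-7 helicase, the ring that unwinds DNA, were unequal in this readout. *Mcm4* had 3075 fragments, *Mcm7* 2529 and *Mcm5* 2264, while *Mcm2* had 1205, *Mcm6* 1196 and *Mcm3* 966. The 3 higher counts and the 3 lower ones did not overlap within their counting intervals. *Mcm4* starts 489 bp from *Prkdc* and *Mcm7* 417 bp from *Ap4m1*, so each window takes in a second protein-coding start and the fragments of the genes in it cannot be told apart. For *Mcm7* the most frequent cut position lay 475 bp downstream of the start used, and the RefSeq start lay 539 bp downstream of it. *Mcm5*, with no neighbor in its window, was the highest of the helicase genes that stand alone, at 112 times the flank.

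The loading factors that place the helicase on origins had intermediate values, with 1830 fragments at *Cdt1* (90.8 times the flank) and 1551 at *Cdc6* (77.0 times). Of the cyclins E, the partners of Cdk2 at the entry to S phase, *Ccne1* (3036 fragments) exceeded *Ccne2* (1882 fragments), and both stood above the 85th percentile, at 94.8 and 86.7. The transcription factors differed more, with 1833 fragments at *E2f1* and 609 at *E2f2*. The genes for making deoxynucleotides included the 2 lowest replication promoters. *Rrm2*, the small subunit of ribonucleotide reductase, had 1150 fragments, *Tk1*, thymidine kinase, 304, and *Tyms*, thymidylate synthase, 142 (120 to 167). A fragment at *Tyms* was seen in 4.09% of cells (3.42 to 4.84), close to the value of *Neurod1*. The window of *Tk1* also holds the start of *Afmid*, 118 bp away, and its most frequent cut position was 1275 bp downstream, outside the window.

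The cyclins and kinase that drive mitosis ran from the top of their class to its lower part. *Ccna2*, cyclin A, led with 2359 fragments at 117 times the flank, followed at a distance by *Cdk1* (1238 fragments) and *Ccnb1* (1217 fragments), which overlapped within counting error, and then by *Ccnb2* (524 fragments). *Top2a*, the topoisomerase that untangles chromosomes, had 2028 fragments, and *Mki67*, whose protein coats mitotic chromosomes and serves as the common proliferation stain, had 1980. These 2 genes, often read as marks of dividing cells, were cut in 44.2% and 40.9% of cells. *Ube2c* (1814 fragments) and *Cdc20* (1431 fragments), the ubiquitin-conjugating enzyme and the activator of the anaphase-promoting complex, stood at the 86.0 and 80.7 percentiles.

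Other mitotic kinases were unequal. *Aurka* had 1343 fragments, *Aurkb* 609 and *Plk1* 350. *Aurka* shares its window with *Cstf1*, 175 bp away, and its most frequent cut position was 425 bp upstream. The checkpoint genes *Bub1* (773 fragments) and *Bub1b* (229 fragments) were among the 5 lowest of the 18. The motors *Kif11* and *Kif20a*, used for the spindle and for cytokinesis, had 1521 and 1390 fragments, with *Brd8* starting 12 bp from *Kif20a*. The kinetochore genes *Cenpe* (1347 fragments) and *Cenpf* (1116 fragments) and the survivin gene *Birc5* (1247 fragments) lay near the class median of 1295.

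As classes, the replication promoters had a median of 1830 fragments and the mitosis promoters 1295, a log2 ratio of 0.50 (0.40 to 0.60 from counting error at the medians). The median percentiles were 86.2 and 78.2. With a window of 500 bp to each side the log2 ratio was 0.32. The range of the mitosis promoters lay within that of the replication promoters, and the classes were not tested against each other.

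Fragments gathered in a sharp peak at the start. Summed over genes, the 50-bp bin with the most fragment ends lay 25 bp upstream for the replication genes, with 390 ends per gene, and 75 bp upstream for the mitosis genes, with 370 ends per gene, as against 152 ends per gene over all protein-coding genes. Downstream, the replication genes had a second, lower rise, with 40.5 ends per gene at 1075 bp, as against 3.0 in the mitosis genes and 7.59 over all genes. At 1275 bp they had 39.1 ends per gene, a bin in which *Tk1* alone had 361 ends. At the outer edges, 1500 to 2000 bp from the start, the mitosis genes fell to 2.03 ends per gene and the replication genes to 3.61. The peak bin was thus 183 times the outer level for mitosis and 108 times for replication genes, as against 39.3 times over all genes. The 2 classes differed more in the outer level than in the peak. Of the ends within 1000 bp, 70.0% lay upstream of the start in the mitosis genes, 57% in the replication genes and 57% over all genes. In 30 of the 35 genes the bin with the most ends lay within 250 bp of the start. The exceptions were *Mcm7*, *Tk1*, *Cdc6*, *Aurka* and *Kif20a*.

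**Figure D2:**
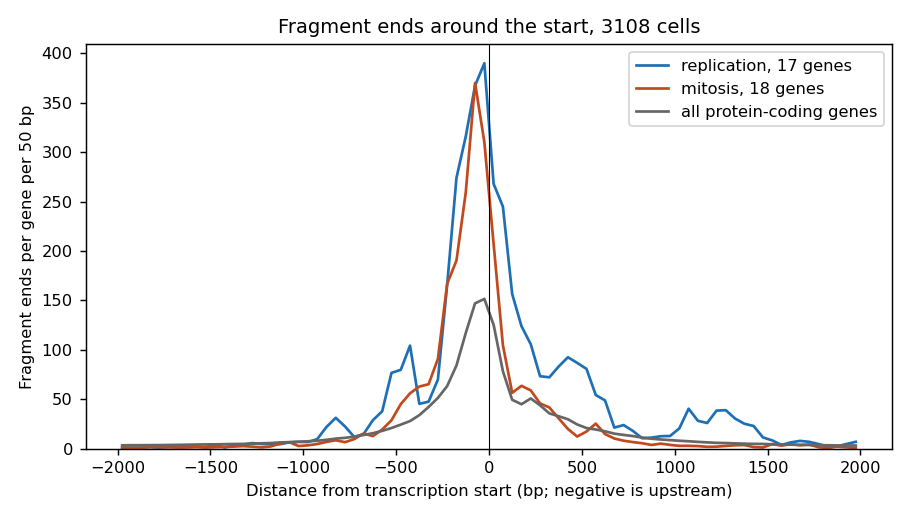
Fragment ends per gene in bins of 50 bp against the distance from the transcription start in bp, for the replication genes, the mitosis genes and all protein-coding genes. Both member classes peak just upstream of the start at 390 and 370 ends per gene, above the 152 of all genes.

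Fragments shorter than the DNA wrapped on a nucleosome come from stretches without one. These short fragments made up a median of 61.4% of member promoter fragments, as against 51.8% in CpG-rich and 42.9% in all protein-coding promoters. The share ran from 30.9% at *Plk1* to 79.9% at *Gins2*, and *Cenpf* had 78.8% although its count was below the class median. *Plk1*, *Tk1* (33.2%) and *E2f2* (35.8%) joined low counts with few short fragments, whereas *Bub1b* had a low count with 60.3% short fragments.

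Outside promoters the gene bodies were mostly quiet, with a few strong elements. Gene body density was counted more than 1000 bp from any protein-coding start, and the median member had 14.0 fragments per kb, 1.42 times (1.27 to 1.58) the 9.92 of all protein-coding genes. It was nearer to the 12.8 of CpG-rich genes and the 13.8 of genes with an open promoter. The replication genes had 21.7 and the mitosis genes 10.3. Over bins of 500 bp, 91 of 1109 bins in member bodies (8.21%) were open at 5 times the flank, as against 4.69% of 2012365 bins over all protein-coding genes. A gene body with at least 1 open bin was found in 18 of 35 members (51.4%) and in 61.5% of all 18846 genes with a body counted. Member bodies had fewer bins per gene than those of all genes, so these 2 shares were not taken at equal length. The replication genes held 71 of the 91 open bins, and 25 of those were in *E2f2*.

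*E2f2* thus had its main site of accessibility inside the gene and not at the promoter. Its body density of 181 fragments per kb put it at the 99.1 percentile of gene bodies, while its promoter stood at the 61.4 percentile. The highest bin, chr4:136177895-136178394, lies in an intron 5751 bp downstream of the start and held 1639 fragments, 325 times the flank and more than the 609 of the whole promoter window of 2 kb. It was part of a run of 15 open bins over 7500 bp. Further open runs followed, with their highest bins 13251 bp and 17751 bp from the start at 50.0 and 22.6 times the flank, both intronic. In RefSeq, a second *E2f2* start lies 8388 bp downstream of the start used, within the long run.

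The other body elements were smaller. *Cdc6* had 11 open bins, with the highest of them 10251 bp from the start (50.6 times the flank) and another 14251 bp from it (40.9 times), the last in exonic sequence at the end of the gene. *Rrm2* had an element 2039 bp from its start, chr12:24710030-24710529, with 319 fragments at 63.3 times the flank, as against 1150 fragments over the whole promoter window. *Tk1* had a body density of 77.3 fragments per kb (95.2 percentile of gene bodies), and its most frequent cut position, 1275 bp from the start with 361 ends in 50 bp, lies in a remainder of the body too short for a bin. Only whole bins were counted, so such a remainder was left out of the bin counts in members and other genes alike. The next bin of *Tk1*, 1816 bp from its start in exonic sequence, had 17.3 times the flank. *Bub1b*, a mitosis gene with a weak promoter, had 248 fragments in a bin 40251 bp from the start (49.2 times the flank), more than the 229 of its whole promoter window. *Kif11* had 7 open bins, the highest 43251 bp from the start at 33.0 times the flank. *Gins2* had 15 open bins of at most 14.5 times the flank, a low and broad level beside its promoter.

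**Figure D3:**
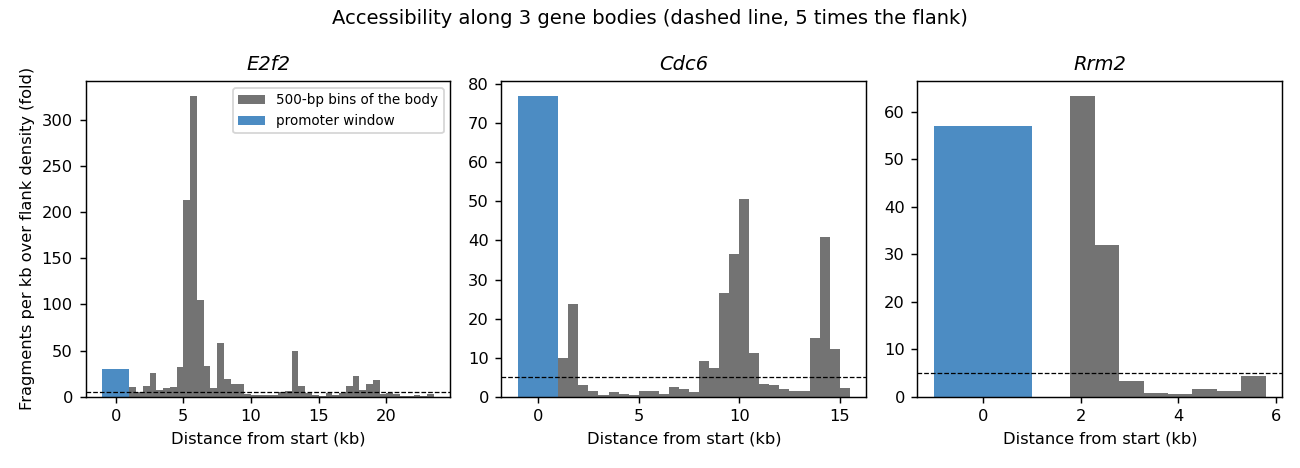
Fragments per kb over the flank density (fold, linear axes that differ between panels) along *E2f2*, *Cdc6* and *Rrm2* against the distance from the start in kb. The blue bar is the promoter window, grey bars are bins of 500 bp of the gene body and the dashed line is 5 times the flank. In *E2f2* the bin at 5751 bp reaches 325 times the flank, and the promoter window 30.2 times, a mean over a wider stretch than a bin.

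Across cells, the 35 promoters together gave a median of 16 fragments per cell (0 to 178), and 1 cell of 3108 had none. The replication genes gave a median of 10 and the mitosis genes of 7. The count followed the depth of the cell, with a Spearman rho of 0.70 over 3108 cells with the number of ATAC fragments and of 0.24 with RNA UMIs. ATAC and RNA depth had a rho of 0.28 with each other, and the part of depth in the relation with RNA was not tested. As a share of all promoter fragments of the cell, the rho values were 0.06 with ATAC fragments and 0.10 with RNA UMIs. The replication share and the mitosis share of a cell had a rho of 0.02 over these cells. The spread of member counts over cells, given their promoter fragments, was 1.24 times that of a Poisson count, and the same measure was between 1.14 and 1.31 for the other gene lists.

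Members took 0.324% of the promoter fragments of kept cells (0.322 to 0.327), counting a fragment once for each window it touches. The value was 0.330% (0.315 to 0.346) in the 649 called cells with 3000 or fewer fragments in peaks and 0.307% (0.296 to 0.319) in the barcodes not called as cells. Of all fragments, rather than those in promoters, the members took 0.148% in kept cells and 0.0798% in barcodes not called, where 26.0% of fragments as against 45.5% fell in promoters.

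Cells were then compared by their RNA content within groups of ATAC depth, to see whether cells with more RNA had more open proliferation promoters. Cells were put into 10 groups by ATAC fragments and split at the median RNA count within each, giving 1550 RNA-rich cells (median 4617.5 UMIs) and 1558 RNA-poor cells (median 3144 UMIs) with median ATAC depths of 11459 and 11454.5. The mean depths were 12241 and 11693 fragments, so depth was brought near to equal and was not the same. The members took 0.330% of promoter fragments in the RNA-rich and 0.318% in the RNA-poor cells, a log2 ratio of 0.05 (0.03 to 0.08). The log2 ratio was 0.07 (0.03 to 0.10) for the replication and 0.03 (-0.01 to 0.07) for the mitosis genes, and these intervals overlap. When cells of each depth group were split into 5 by RNA, a split chosen after the data were seen, the share was 0.314% in the lowest and 0.337% in the highest, with 0.323%, 0.316% and 0.330% between them. Cells are not replicates, so no test was made, and how much of this small difference another preparation would show was not tested.

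Single members differed little between these groups. A gene was called where its share was more than 25% higher or more than 20% lower, the same ratio in both directions. In RNA-rich cells 0 of 35 members were higher, as against 2.92% of 13622 genes with at least 100 fragments, and 0 of 35 were lower, as against 2.11%. All 35 members had at least 100 fragments. For a list of 35, no calls is not far from these shares, which also take in genes of few fragments. Of 9966 CpG-rich genes, 184 were higher and 105 lower. The log2 ratio was above 0 in 23 of 35 members and in 51.4% of all genes, with a median of 0.07, as against a median of 0.00 over all genes. In 3 members the counting interval lay above 0, as against 6.0% of genes, and in 0 of 35 below it, as against 5.27%. These 3 were *Ccne2* (log2 ratio 0.27, 0.14 to 0.40), *Mcm4* (0.20, 0.10 to 0.30) and *Aurka* (0.20, 0.05 to 0.36), named here after their values were seen; *Mcm4* and *Aurka* share their windows with another gene.

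The cells with the most ATAC fragments were compared with those with the fewest in the same way. The 1036 ATAC-deep cells (median 14574.5 fragments, 4339 UMIs) gave a member share of 0.330% and the 1036 ATAC-shallow cells (median 8119 fragments, 3610.5 UMIs) 0.321%, a log2 ratio of 0.04 (0.01 to 0.07). Without the 5% of cells with the most fragments, which could hold doublets, it was 0.02 (-0.01 to 0.05). Over 10 groups of depth the share stayed between 0.313% and 0.328% in the lower 9 and was 0.344% in the deepest. The difference was thus smaller without the deepest cells. Deep cells also had fewer promoter fragments per 100 fragments, 43.8 as against 47.4, and with all fragments as the denominator the log2 ratio turned to -0.071 (-0.10 to -0.04).

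**Figure D4:**
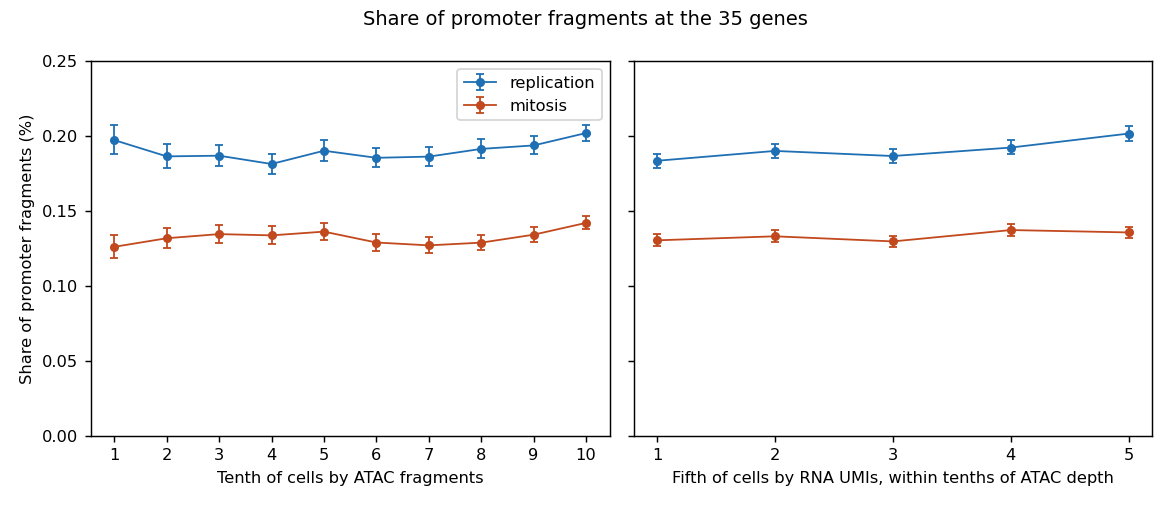
Share of promoter fragments (%) at the replication and the mitosis genes in 10 groups of cells by ATAC fragments (left) and in 5 groups by RNA UMIs within each of the 10 groups of ATAC fragments (right). Points are sums over the cells of a group and bars exact 95% Poisson intervals. The lines are nearly flat, with the highest replication share in the deepest and in the most RNA-rich group.

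By gene, 3 members were more than 25% higher in the deep cells, *Ccnb2* (log2 ratio 0.40, 0.07 to 0.74), *Rrm2* (0.37, 0.15 to 0.60) and *Mcm6* (0.34, 0.12 to 0.55), as against 14.4% of genes, and 0 of 35 were lower, as against 1.52%. Of 9966 CpG-rich genes with at least 100 fragments, 1082 were higher and 81 lower. The counting interval lay above 0 in 8 of 35 members, as against 13.8% of all genes. Besides those 3, these were *Cdt1* (0.28), *Mki67* (0.28), *Ccne2* (0.25), *E2f1* (0.23) and *Ccne1* (0.14). It lay below 0 in *Gins2* alone (-0.26, -0.36 to -0.16), as against 8.11% of genes. The median over members was 0.05, near the 0.06 over all genes.

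**Figure D5:**
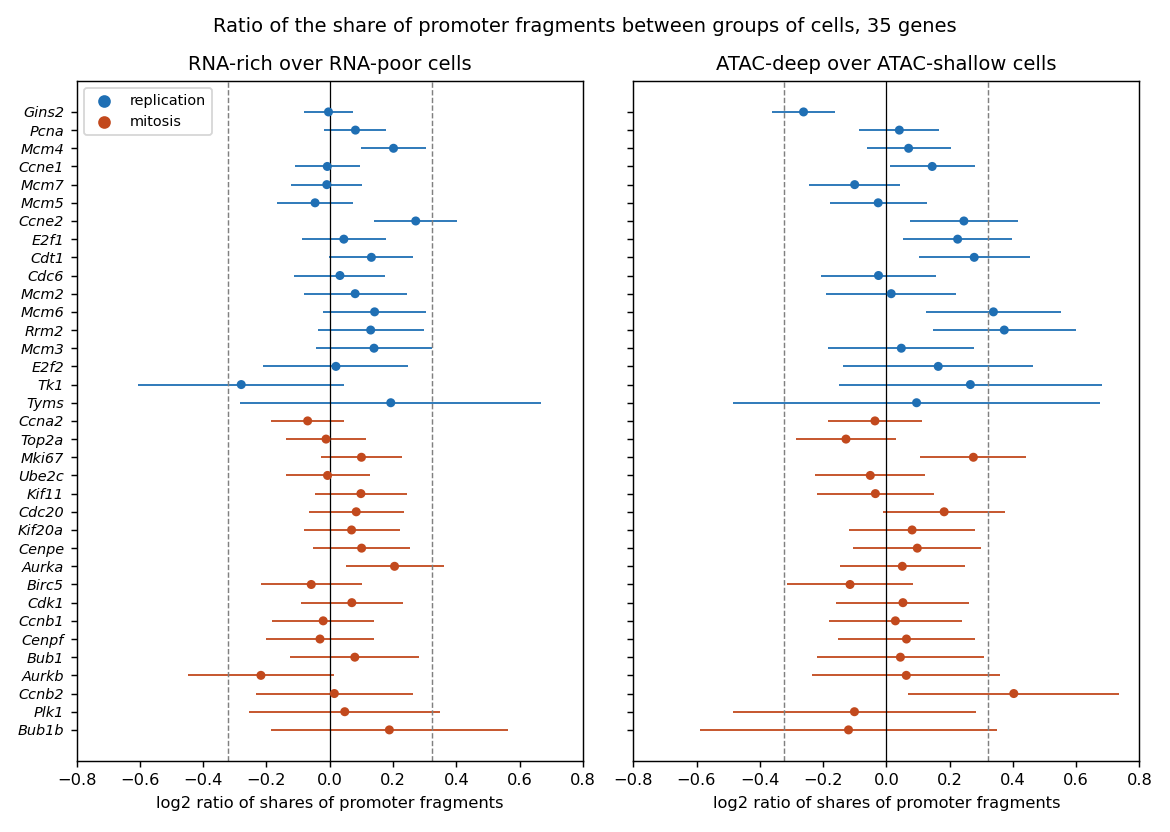
The log2 ratio of each member's share of promoter fragments between RNA-rich and RNA-poor cells (left) and between ATAC-deep and ATAC-shallow cells (right). Bars are 95% counting intervals and dashed lines mark 25% higher and 20% lower; in the left panel every point lies between these lines, and in the right panel *Ccnb2*, *Rrm2* and *Mcm6* lie past them.

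The same readouts were taken for other genes of the cell cycle. All 29 other S-phase genes were open, with a median of 1784 fragments, from *Prim1* (134) and *Wdr76* (190) to *Dtl* (4294) and *Usp1* (5101). All 38 other mitosis genes were open, with a median of 1616, from *Psrc1* (280) and *Kif2c* (479) to *Cdca3* (5777) and *Cdca2* (5813). Beside the member medians, the other S-phase genes lay slightly below the 1830 of the replication genes and the other mitosis genes above the 1295 of the mitosis genes. The 17 genes of pocket proteins, E2F partners and DREAM or MuvB subunits, which regulate the members, had a median of 1226 fragments, from *E2f6* (624) and *Lin37* (638) to *Lin52* (4484) and *Rbbp4* (4596). The 6 D cyclin and G1 kinase genes (median 1307.5) and the 7 CDK inhibitor genes (median 942) were open as well. Between RNA-rich and RNA-poor cells the log2 ratio of the summed share was 0.04 (0.01 to 0.07) for the other S-phase genes and 0.02 (-0.0044 to 0.04) for the other mitosis genes. It was 0.01 (-0.03 to 0.04) for the pocket protein and DREAM or MuvB genes, 0.0018 (-0.05 to 0.06) for the CDK inhibitors and -0.05 (-0.11 to 0.01) for the D cyclins and G1 kinases.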

How the data were processed

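The authors mapped reads with Cell Ranger ARC 2.0.2 to mm10 and deposited counts of fragments, reads and UMIs per barcode, and every unique ATAC fragment with its count of read pairs; none is normalized. The file held 42000180 fragments from 184924902 read pairs. Cell Ranger ARC calls cells jointly from ATAC and RNA. Whether fragment ends carry the usual shift for the transposase is not stated, and such a shift of a few bases is small beside the windows. The antibody matrix was not used here, and gene-level RNA was not analysed here.

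Fragments were read with pandas 2.3.3, numpy 2.4.6 and scipy 1.17.1 under Python 3.11.15, and matplotlib 3.10.9 drew the figures. Starts were those of the principal transcript of each protein-coding gene (GENCODE vM21, chromosomes 1 to 19 and X). Gene bodies needed at least 2000 bp left, and ratios at least 100 fragments. Protein-coding genes of the same CpG class served as the matched comparison for open promoters, percentiles, short fragments and gene body density. Motif shares, open bins and profiles were set beside all protein-coding genes only. Intervals of log2 ratios are normal approximations from the counts; others are exact. Counting and ratios were checked on simulated data. All 35 members are named; of the other lists the 2 highest and 2 lowest. The members and lists were chosen with earlier results of these data known. Alternatives changed the window, unit counted, cells, start, fragments, threshold, depth groups and denominator. With 1 preparation no test between groups was possible, and cells are not replicates.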

Additional observations from a re-analysis of the deposited data

How the results depend on the processing

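No paired analysis was possible because the 3 libraries read the same cells of 1 preparation, so the groups hold no replicates to pair. Of 53 alternative values, 47 stayed within the counting interval of the reported value or, for the number of open members, near it. The median percentile of the members was 81.3 with windows of 500 bp to each side and 81.7 with fragments shorter than nucleosomal DNA. The narrower window gave a log2 ratio of replication over mitosis medians of 0.32, and short fragments gave a relative gene body density of 1.01. The highest over the lowest group of 5 by RNA, chosen after the data were seen, gave a log2 ratio of 0.10. The cause of these shifts was not tested. With all fragments as the denominator, the log2 ratio of ATAC-deep over ATAC-shallow cells was -0.071. With promoter fragments as the denominator, the interval of that ratio took in 0 with all called cells (0.02), without the 5% of cells with the most fragments (0.02) and with short fragments (0.02). The number of open members was 35 under 8 alternatives, 34 at 10 times the flank, 31 at 20 times and 30 of 30 without the members that share a window. At the depth of these data a promoter such as *Tyms*, with 142 fragments, shows only large differences between groups of cells.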

Other observations

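Among the other S-phase genes, 4 of 29 were more than 25% higher in RNA-rich than in RNA-poor cells, as against 2.92% of all genes. The genes given here were chosen after their values were seen. *Cdca7*, a partner of the remodeler Hells, had 261 fragments in RNA-rich and 163 in RNA-poor cells (log2 ratio 0.63, 0.35 to 0.91). *Exo1*, an exonuclease of DNA repair, had 184 and 138 (0.36, 0.05 to 0.68), and *Prim1*, the primase subunit, 78 and 56 (0.43, -0.07 to 0.92). These genes had 424 fragments or fewer, under the median of 1784 for that list. Between ATAC-deep and ATAC-shallow cells, *Prim1* had a log2 ratio of 1.15 (0.41 to 1.89). These groups share cells with the RNA groups, and the values have no replicate.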
